A study of Mus musculus with 4 samples.

Results

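Cystatin B (Cstb), the cathepsins Ctsb, Ctsd, Ctsl, Ctss and Ctsz, legumain (Lgmn), the lysosomal membrane protein Lamp1, the tetraspanin Cd63 and prosaposin (Psap) were followed in neutrophils sorted from tumors and from blood. These 10 genes were taken by symbol from the 18894 genes listed in the RNA files of the series, and all 10 were counted in both tissues. The tumor group held neutrophils from tumors grown in 3 untreated FVB mice injected with Py7160, a mouse mammary tumor cell line, and the blood group held neutrophils from the blood of the same tumor-bearing mice, so both groups came from animals with a tumor and no tumor-free animal was compared. Tumors of about 1 cm were harvested 2 to 3 weeks after the cells were injected and dissociated enzymatically; blood went through red-cell lysis instead. Cells of both tissues were enriched through Ly6G, stained with a hashtag antibody per mouse, pooled by tissue, sorted as CD11b+ Ly6G+ and run by Drop-seq, a droplet method that counts single RNA molecules (UMIs) per cell barcode. Each tissue is a single RNA library, so the tissue, the library and the way the cells were released cannot be told apart, and the tests below use only the spread among mice of a library.

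Lysosomes break down material brought in by endocytosis, phagocytosis and autophagy. Cathepsins are their main proteases: Ctsb, Ctsl, Ctss and Ctsz are papain-like cysteine proteases, Ctsd is an aspartic protease, and legumain is a cysteine protease that cuts after asparagine and processes cathepsins to their mature chains. Cystatin B, also called stefin B, is a cytosolic and nuclear inhibitor of papain-like cathepsins and is known for limiting damage when these enzymes leave the lysosome. In neutrophils, lysosome-related proteins are also found in granules; Cd63 is known as a marker of azurophil granules. Many lysosomal genes are known targets of the transcription factors TFEB and TFE3, which bind an element built around an E-box.

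After filtering (at least 200 detected genes, at most 15% mitochondrial UMIs, a top hashtag with at least 70% of hashtag counts), 106, 564 and 171 tumor cells and 511, 456 and 408 blood cells were assigned to mice 1, 2 and 3. These cells held 70612 to 385370 UMIs per tumor mouse and 330296 to 436713 per blood mouse, with a median of 570 to 586 UMIs per tumor cell and 647.5 to 671 per blood cell. Tumor mouse 2 stood apart in its hashtag counts: a second caller, HTODemux, gave no hashtag to 230 of its 564 cells and to 0 of the cells of tumor mice 1 and 3. The neutrophil marker list of 10 genes was counted with every marker detected in both tissues, at 67849 to 82386 CPM (UMIs of the genes divided by all UMIs of the mouse's cells, times 1000000) in tumor mice and 181549 to 209828 in blood mice. Macrophage or monocyte markers summed to 482 to 2216 CPM in tumor mice, with 12 of 12 genes detected, and to 616 to 651 in blood mice, where C1qa, C1qb, C1qc, Ms4a7, Mrc1 and Fcgr1 were among the genes at 0. Hemoglobin and other erythroid markers were at 0 in tumor cells and at 13960 to 22162 CPM in blood cells. Of the assigned tumor cells, 60 of 841 (7.13%, exact 95% binomial interval 5.49 to 9.09) held at least 2 UMIs, in sum, of the macrophage and MHC class II genes C1qa, C1qb, Apoe, Cd74, H2-Aa and H2-Ab1. These marker cells, 6, 45 and 9 in tumor mice 1, 2 and 3, were kept in the first comparison and removed in a repeat. The same rule marked 42 of 1375 blood cells (3.05%, 2.21 to 4.11), which were kept in that repeat. All intervals on counts cover counting error only.

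The promoters are shown before the levels because the genes moved together between tissues, as given below, while the E-box differed among them. RefSeq windows from 250 bases before to 50 after the start (build GRCm38.p6) were at hand for 8 of the 10 genes, 1 window each and 2 each for Lgmn and Psap, 10 in all. The E-box CACGTG was searched as letters, and it reads the same on both strands. It was found in 4 of the 10 windows, those of Ctsd, Lamp1, Ctsl and 1 of the 2 of Lgmn, and in 7.15% of all 32851 windows of the same length. The longer TCACGTG, searched on both strands, contains the first motif and was found for Ctsd, Lamp1 and Lgmn, against 3.77% of all windows. Lamp1 held 4 copies, at bases -61, -45, -28 and -15 from the start; Ctsd held 2 copies, at -245 and -98, Ctsl 1 at -236 and Lgmn 1 at -49. The windows of Ctss, Ctsz, Cd63 and Psap and the other window of Lgmn held none, which says only that these letters are not in those windows. The stretches that hold the copies of Lamp1, the nearer copy of Ctsd and the copy of Lgmn are given from 5′ to 3′ on the strand of the gene with the E-box in capitals, from chr8:13159081-13159160 (plus strand), chr7:142387908-142387937 (minus strand) and chr12:102439124-102439153 (minus strand):
Lamp1: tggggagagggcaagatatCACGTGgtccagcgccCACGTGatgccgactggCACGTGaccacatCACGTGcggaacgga
Ctsd: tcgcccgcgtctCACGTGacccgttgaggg
Lgmn: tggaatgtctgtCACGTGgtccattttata

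The first comparison asked which of the genes differed between the tumor and the blood neutrophils of the same mice. All 10 genes were called higher in tumor cells; Ctsl and Lgmn entered the test through the tumor group alone, as given with their values. The UMIs of each mouse in each tissue were added up and tested with edgeR's quasi-likelihood test over 3674 genes, with Benjamini-Hochberg adjustment and a threshold of 0.05. In this comparison 30.2% of all tested genes were called higher and 29.8% lower, so a call alone was common. The log2 fold changes of the 10 genes, Ctsl and Lgmn included, ran from 1.05 to 4.93 with a median of 3.26, whereas the median over all tested genes was -0.04. A log2 fold change at or above that of Ctsd, the smallest of the 10, was seen for 23.8% of tested genes, and one at or above that of Cstb for 2.37%.

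Cstb, the cathepsin inhibitor, showed the largest difference of the 10. It was counted at 3753, 3830.1 and 4150.2 CPM in tumor mice 1, 2 and 3, against 147, 113 and 127 in blood mice 1, 2 and 3. The lowest tumor mouse was far above the highest blood mouse. The log2 fold change came to 4.93 (SE 0.15, edgeR adjusted p = 2.78e-14), a fold of 30.6. Cstb lies on chromosome 10 at 78425669 to 78427622 (GRCm38, plus strand) and overlaps no other annotated gene.

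Ctsb, a papain-like cathepsin that also trims peptides from the carboxyl end, stood at 2974, 2764 and 2952 CPM in tumor mice, against 277, 229 and 254 in blood mice, with no overlap. Its log2 fold change came to 3.53 (SE 0.13, edgeR adjusted p = 7.34e-13), a fold of 11.5. Ctsz, a papain-like carboxypeptidase also called cathepsin X, was counted at 552, 636 and 625 CPM in tumor mice, against 55.0, 52.6 and 42.4 in blood mice. Its log2 fold change of 3.62 (SE 0.19, edgeR adjusted p = 5.71e-11) lay close to that of Ctsb, and its mice did not overlap either.

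Ctss, the papain-like cathepsin known for cutting the invariant chain in antigen-presenting cells, was the gene whose mice overlapped. Its level was 99.1, 524 and 659 CPM in tumor mice 1, 2 and 3, against 73.3, 78.9 and 118 in blood mice. Tumor mouse 1 lay below blood mouse 3, while the other tumor mice lay well above all blood mice. The log2 fold change came to 2.45 (SE 0.35, edgeR adjusted p = 1.16e-05). With cells limited to at most 5% mitochondrial UMIs, which kept 93, 459 and 148 tumor cells and 181, 194 and 128 blood cells, it was 3.92.

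Ctsl and Lgmn were counted rarely. Ctsl, a papain-like endopeptidase, stood at 70.8, 132 and 68.5 CPM in tumor mice, against 9.16, 7.89 and 3.03 in blood mice, from 64 and 8 UMIs in all. Lgmn, the legumain gene, stood at 85.0, 138 and 145 CPM in tumor mice, against 4.58, 5.26 and 3.03 in blood mice, from 76 and 5 UMIs. For both genes every tumor mouse was above every blood mouse, and the log2 fold changes were 3.89 for Ctsl (SE 0.46, edgeR adjusted p = 1.77e-06) and 4.81 for Lgmn (SE 0.44, edgeR adjusted p = 6.67e-08). The low-count filter asked for 28.2 CPM in at least 3 sums, which Ctsl and Lgmn reached in 3 tumor mice and 0 blood mice, so they could enter the test only by being high in tumor and their calls are not read as support. The other 8 genes reached it in every mouse of both tissues. Ctsl and Lgmn had few blood UMIs, so the size of these folds is poorly fixed: the 95% intervals ran from 2.91 to 4.87 for Ctsl and from 3.88 to 5.74 for Lgmn on the log2 scale. With HTODemux in place of the hashtag rule the log2 fold change of Lgmn was 5.89, and without tumor mouse 2 that of Ctsl was 3.26.

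Ctsd, the aspartic protease, differed least. It was counted at 1204, 1035 and 1018 CPM in tumor mice, against 591, 432 and 557 in blood mice. The groups did not overlap, but the fold was 2.07 (log2 1.05, SE 0.14, edgeR adjusted p = 8.43e-06). A protein-coding gene model, Gm49369, overlaps Ctsd on the same strand, so reads could have been split between the models in counting.

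The membrane proteins and prosaposin lay between these extremes. Lamp1, a heavily glycosylated protein that lines the lysosome, was counted at 581, 817 and 796 CPM in tumor mice, against 112, 145 and 118 in blood mice. Cd63, a tetraspanin of late endosomes, lysosomes and azurophil granules, was counted at 581, 854 and 864 CPM in tumor mice, against 91.6, 137 and 75.7 in blood mice. Psap, the precursor of the saposins that help hydrolases reach sphingolipids, was counted at 991, 1209 and 1395 CPM in tumor mice, against 353, 339 and 294 in blood mice. Tumor and blood mice did not overlap for any of the 3 genes. The log2 fold changes were 2.63 for Lamp1 (SE 0.18), 2.99 for Cd63 (SE 0.21) and 1.90 for Psap (SE 0.15), with edgeR adjusted p of 1.83e-09, 2.77e-09 and 1.36e-08. Cd63 has a pseudogene copy, Cd63-ps, that was counted apart with 66 UMIs in tumor cells and 22 in blood cells, so part of its reads may have gone there.

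**Figure D1:**
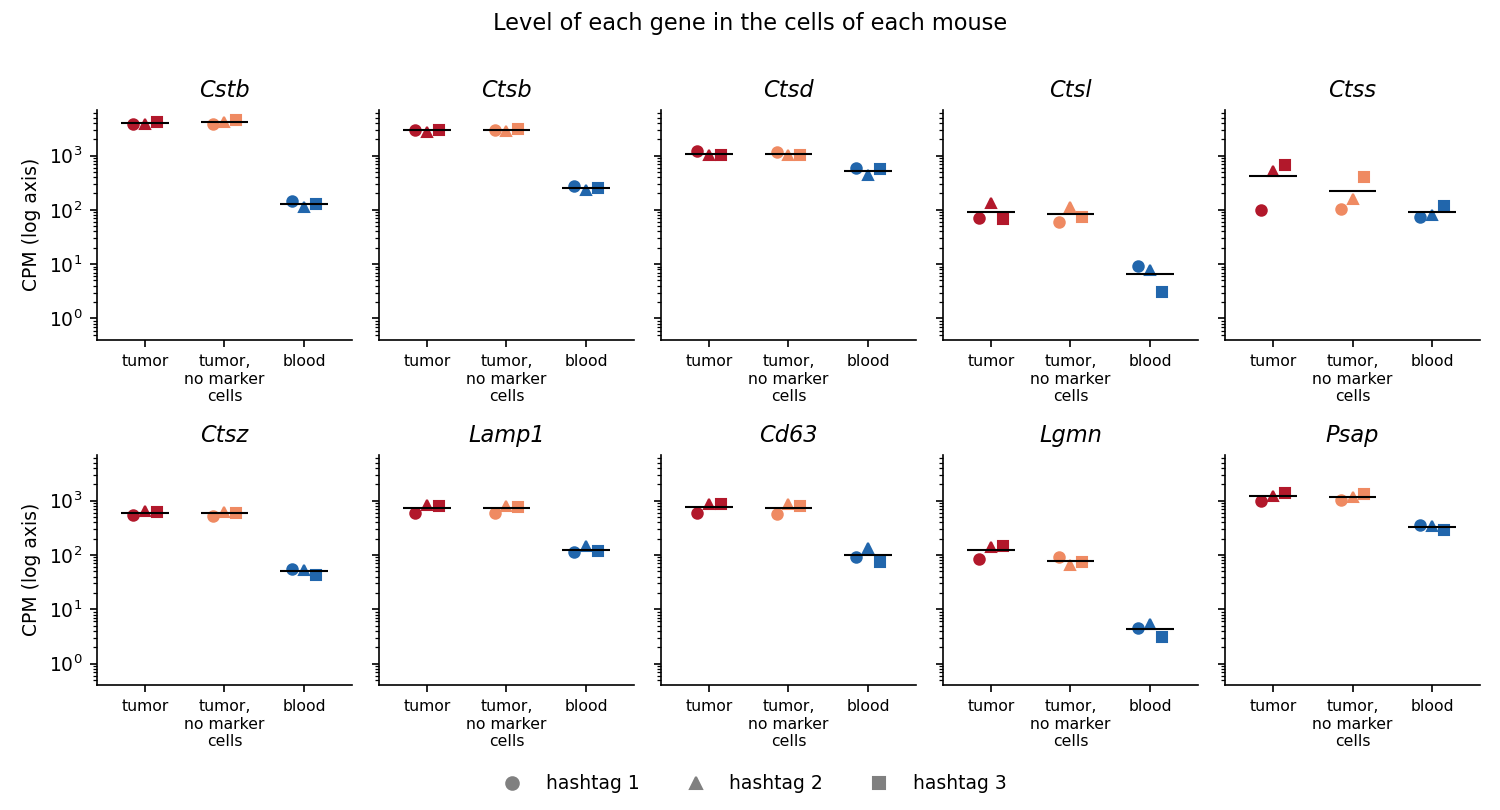
Level of each gene in CPM (log axis) in the summed cells of each mouse, for all tumor cells, tumor cells without the macrophage or MHC class II marker cells, and blood cells; each point is a mouse, and the bar is the mean of 3 mice. Tumor mice lay above blood mice for 9 of the 10 genes, and for Ctss tumor mouse 1, at 99.1, lay below blood mouse 3, at 118.

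In all, 9 of the 10 genes had every tumor mouse above every blood mouse, and 29.8% of all tested genes did so. Mice did not overlap, in either direction, for 63.0% of tested genes. Ctsl and Lgmn are among the 9 and could enter the test only by being high in tumor, so neither their gap nor their call is read as support. The call of each of the 10 genes was kept under every alternative run, among them HTODemux assignment, DESeq2 and leaving out each mouse in turn. HTODemux drops the 230 uncalled cells of tumor mouse 2, and the log2 fold change of Cstb was then 5.02 and that of Ctsb 3.57.

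The second comparison repeated the first without the 60 tumor marker cells. All 10 genes were again called higher in tumor cells, where 30.1% of 3499 tested genes were. Tumor mice again lay above all blood mice for 9 of them, and did so for 29.4% of tested genes. Ctsl and Lgmn are counted here too and are again not read as support. For 8 of them the log2 fold change moved little: it was 5.05 for Cstb, 3.57 for Ctsb, 3.62 for Ctsz, 3.78 for Ctsl, 2.65 for Lamp1, 2.98 for Cd63, 1.89 for Psap and 1.08 for Ctsd. Ctss dropped to 1.33 (SE 0.34, edgeR adjusted p = 0.00234), from levels of 106, 157 and 405 CPM in tumor mice against the same 73.3, 78.9 and 118 in blood mice. Tumor mouse 3 carried much of the Ctss difference left, and without it Ctss stood at 0.78 (edgeR adjusted p = 0.0317). Lgmn dropped to 3.98 (SE 0.46, edgeR adjusted p = 7.09e-07), from 90.6, 65.2 and 75.3 CPM in tumor mice.

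**Figure D2:**
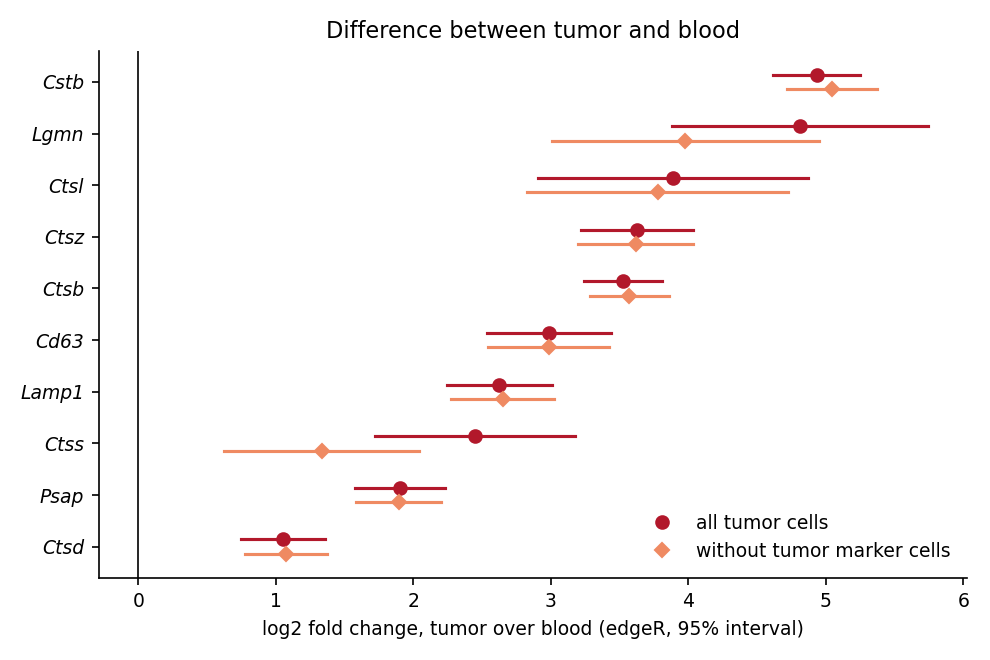
Log2 fold change of tumor over blood for each gene (edgeR's quasi-likelihood fit with its 95% interval), with all tumor cells and without the tumor marker cells; rows are ordered by the value with all cells. Ctss stood at 2.45 with all cells and 1.33 without the marker cells, Lgmn at 4.81 and 3.98, and Cstb at 4.93 and 5.05.

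The marker cells held very different shares of each gene's tumor UMIs. They held 11.0% of the UMIs of all genes, 64.0% of those of Ctss (exact 95% binomial interval 58.1 to 69.6) and 52.6% of those of Lgmn (40.8 to 64.2). For Ctsl the share was 21.9% (12.5 to 34.0), and for Psap, Ctsz, Cd63, Lamp1, Ctsd and Ctsb it ran from 14.7% down to 10.1%. Cstb stood on the other side, with 5.30% (4.41 to 6.31). Ctss was counted at 2897 CPM in marker cells and at 202 in the other tumor cells, a ratio of 14.3. Cstb was counted at 1868 CPM in marker cells (exact 95% Poisson interval 1546 to 2237) and at 4136 in the other tumor cells (3961 to 4316). These are cells of a single library, so no test was made between them.

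RNA outside cells was gauged from barcodes with 20 to 60 UMIs, too few for a cell by the filters used. The tumor library had 5945 of them with 268014 UMIs, and the blood library 6739 with 246931. For 7 of the 10 genes the level in tumor cells without marker cells lay above that in the tumor barcodes of few UMIs, with intervals that did not overlap. Cstb had the widest gap, at 4136 CPM in the cells and 795 in the barcodes of few UMIs (exact 95% Poisson interval 692 to 909), a ratio of 5.20. The ratio was 2.79 for Ctsz, 2.42 for Cd63 and between 1.64 and 1.79 for Ctsb, Ctsd, Lamp1 and Psap. The same ratio over all assigned tumor cells was 4.89 for Cstb, 4.94 for S100a8 and 3.80 for S100a9, which are neutrophil genes, and 1.25 for Apoe and 1.94 for Cd74, which marked the other cells. For Ctsl, Ctss and Lgmn the cells did not stand above the barcodes of few UMIs. Ctsl was at 98.1 CPM in the cells (72.8 to 129) and 97.0 outside them (63.4 to 142), Ctss at 202 (165 to 245) and 269 (210 to 338), and Lgmn at 70.6 (49.5 to 97.8) and 119 (81.7 to 169). The tumor levels of Ctsl, Ctss and Lgmn without the marker cells were thus seen at a like level outside cells, and they are not read as expression in the tumor neutrophils. In the blood library the barcodes of few UMIs held Cstb at 12.1 CPM, against 130 in blood cells, and Ctsl, Ctss and Lgmn at 8.10, 44.5 and 8.10. For each of the 10 genes the tumor barcodes of few UMIs also stood above the blood cells. Cstb was at 795 and 130 CPM, Ctsb at 1638 and 255, and Psap at 653 and 331. Ctsd was at 619 (529 to 721) and 528 (487 to 572), with overlapping intervals. The part of RNA outside cells in the folds between tissues was not tested.

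**Figure D3:**
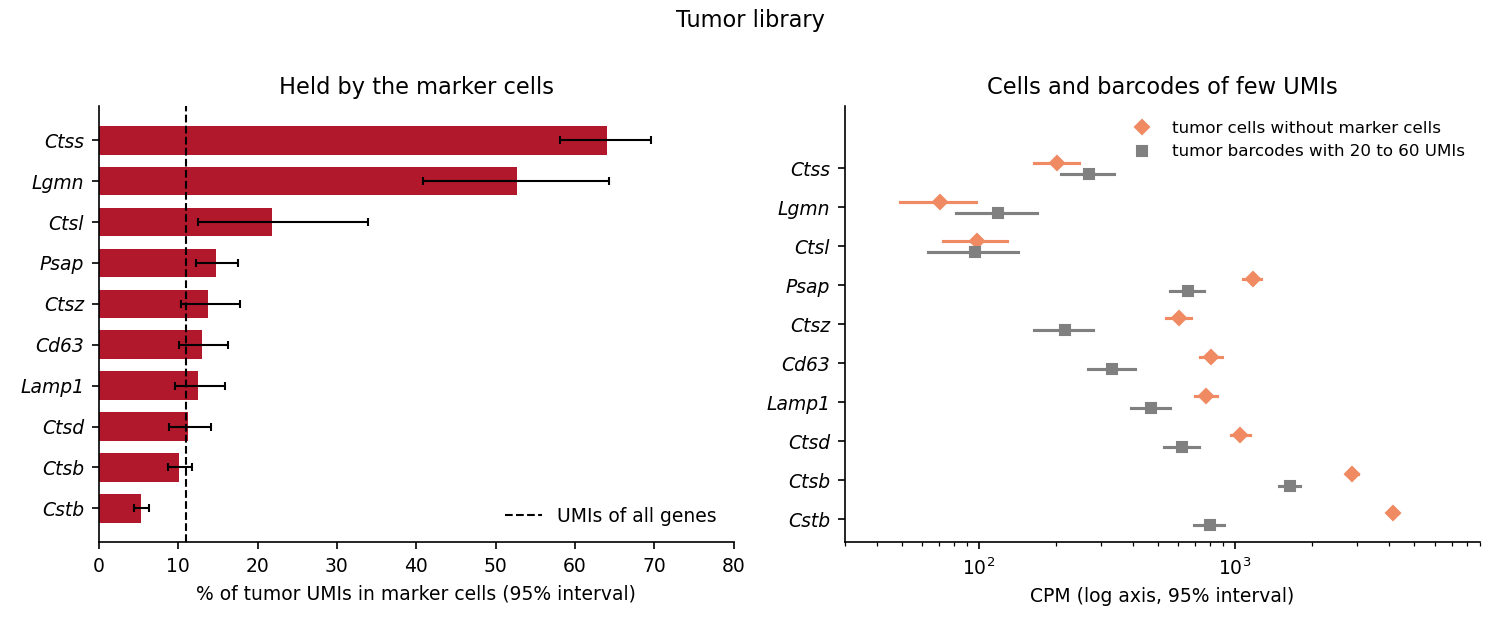
Left, percent of each gene's tumor UMIs held by the 60 macrophage or MHC class II marker cells, with exact 95% binomial intervals; the dashed line is the share over all genes, 11.0%. Right, CPM (log axis) in the other tumor cells and in tumor barcodes with 20 to 60 UMIs, with exact 95% Poisson intervals; Cstb stood at 4136 in cells and 795 outside, and Ctsl at 98.1 and 97.0.

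The share of cells with at least 1 UMI of a gene was compared after thinning every cell to 441 UMIs, which left out 209 shallower tumor cells and 254 shallower blood cells. Cstb was found in 60.4%, 62.8% and 49.8% of cells in tumor mice, against 6.27%, 4.79% and 4.51% in blood mice. Ctsb was found in 55.2%, 60.5% and 61.5% of cells in tumor mice, against 12.7%, 10.3% and 10.3% in blood mice. RNA of the make-up of the barcodes of few UMIs would by itself give, at 441 UMIs per cell, a share of 29.6% for Cstb and 51.5% for Ctsb in the tumor library, and 0.53% and 3.34% in the blood library. These background shares suppose that all 441 UMIs of a cell come from outside it, so they are upper figures and not estimates. The share averaged over tumor mice was 57.7% for Cstb and 59.1% for Ctsb, and the part of RNA outside cells in the shares was not tested. Ctsd was less divided, at 31.1% to 40.0% of cells in tumor mice and 17.5% to 23.1% in blood mice. Ctsz, Lamp1, Cd63 and Psap averaged 22.6% ± 2.65, 23.6% ± 5.04, 22.2% ± 5.01 and 26.7% ± 3.26 of cells in tumor mice, and 2.56% ± 0.42, 5.65% ± 0.65, 3.57% ± 0.71 and 11.9% ± 1.73 in blood mice (SD, n = 3 each). The background share in the tumor library was 9.10% for Ctsz, 18.7% for Lamp1, 13.6% for Cd63, 23.9% for Ctsd and 25.03% for Psap, so the mean tumor share of Psap lay near it. Ctsl and Lgmn were found in 3.50% and 4.01% of tumor cells and in 0.29% and 0.15% of blood cells on average, and their tumor shares lay below the background of 4.19% and 5.13%. Ctss was found in 2.87%, 10.1% and 15.3% of cells in tumor mice, against 2.50%, 3.01% and 4.52% in blood mice, beside a tumor background of 11.2%. The tumor and blood mice overlapped for Ctss and for no other of the 10 genes. The share of all genes without such an overlap was not counted for this measure, so the gap is not read as particular to these genes. Exact permutation of the tissue labels of the 6 mouse and tissue values (two-sided) gave p = 0.1 for 9 genes and 0.3 for Ctss. The smallest p this test allows is 0.1. It takes the tissues as unpaired, although both came from the same mice. Without thinning, Cstb was found in 65.0% of tumor cells and 9.11% of blood cells on average. No cell type known to lack these genes was in the sort, so the barcodes of few UMIs above are the measure of background.

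Per cell, the median number of the 10 genes detected was 3 in tumor cells and 1 in blood cells. None of them was detected in 3.92% of tumor cells and in 34.5% of blood cells, and at least 5 were detected in 24.4% of tumor cells and 0.51% of blood cells. Their UMIs made up 1.20% of all UMIs in tumor cells and 0.16% in blood cells. These counts were made without thinning and include RNA from outside cells. The background share at 441 UMIs was higher in the tumor library for each of the 10 genes. It was 51.5% and 3.34% for Ctsb in tumor and blood, and 25.03% and 4.37% for Psap. The part of this background in the counts per cell was not tested.

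The balance of inhibitor and enzymes was set against each other within each mouse, as Cstb UMIs per UMI of the papain-like cathepsins Ctsb, Ctsl, Ctss and Ctsz, which does not depend on scaling. The ratio was 1.02, 0.94 and 0.96 in tumor mice, against 0.35, 0.31 and 0.30 in blood mice. The groups did not overlap, and the ratio was 3.04 times as high in tumor cells. The exact two-sided permutation test, with the tissues taken as unpaired, gave p = 0.1, the smallest that 3 against 3 values allow. Without the marker cells it was 1.05, 1.11 and 1.09 in tumor mice. The ratio counts RNA molecules and says nothing of protein or activity. It includes Ctsl and Ctss, which are not read above as expression in the tumor neutrophils. In the barcodes of few UMIs, Cstb, Ctsb, Ctsl, Ctss and Ctsz had 213, 439, 26, 72 and 58 UMIs in the tumor library. In the blood library they had 3, 19, 2, 11 and 4. The part of RNA outside cells in the ratio was not tested.

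Cstb also took a different place among the inhibitors themselves, a composition looked at after the levels were seen. It made up 40.0%, 48.7% and 55.5% of all UMIs of the cystatin and stefin genes listed in tumor mice, against 2.28%, 2.07% and 1.61% in blood mice. In blood cells most of this pool was made of the stefin A genes and Cst3. Stfa2l1, Cstdc5 and Cst3 made up 28.7% ± 1.96, 21.3% ± 5.15 and 22.4% ± 3.65 of it in blood mice, and 13.5% ± 2.72, 8.86% ± 5.02 and 12.0% ± 4.17 in tumor mice (SD, n = 3 each).

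The other genes of the pathway were read from lists, of which 80 genes were tested: 43 were higher, 15 lower and 22 not called, with a median log2 fold change of 1.02. Among all tested genes 30.2% were higher and 29.8% lower, and the counts of each list below are to be read beside these shares. Of the genes named from these lists, Tpp1, Ctsh, Pla2g15, Gla, Acp5, M6pr, Atp6v1h, Rragd, Flcn and Rragc reached the low-count filter through the tumor mice alone and Atp6v0a1 through the blood mice alone, so the filter made a difference between the tissues likely for them and their p are not read as support. Of 7 tested cystatins and stefins other than Cstb, 0 were higher, 4 lower and 3 not called, with a median of -0.62. Cst3, the secreted cystatin C, stood at 694, 1046 and 1155 CPM in tumor mice, against 1419.7, 1437 and 1505 in blood mice, and fell by 0.52 on the log2 scale (edgeR adjusted p = 0.00796). The stefin A genes Stfa2l1, Cstdc5 and Cstdc6 fell by 0.77, 1.01 and 0.99 (edgeR adjusted p = 0.000636, 0.0120 and 0.00531). The tumor and blood mice overlapped for Cstdc5 and Cstdc6, and the calls of both were lost in some alternatives. The stefin A genes are near-identical copies, so the split of reads between them is uncertain.

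Among 7 other lysosomal proteases and related hydrolases, 3 were higher and 1 lower, with a median log2 fold change of 0.18. With so few genes these counts are not read as a departure from all tested genes. The tripeptidyl peptidase Tpp1 was counted at 99.1, 125 and 205 CPM in tumor mice, against 18.3, 23.7 and 18.2 in blood mice (log2 fold change 2.83, edgeR adjusted p = 2.45e-06). The aminopeptidase Ctsh and the lysosomal phospholipase Pla2g15 rose by 1.53 and 1.20 on the log2 scale (edgeR adjusted p = 0.00191 and 0.0146), and the call of Pla2g15 was lost in several alternatives. Without tumor mouse 2 the call of Ctsh was lost too (log2 fold change 1.20, edgeR adjusted p = 0.0920). Ctse, an aspartic protease of endosomes related to Ctsd, fell by 1.50 (edgeR adjusted p = 0.000178), at 42.5, 41.5 and 59.9 CPM in tumor mice against 128, 145 and 130 in blood mice.

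The vacuolar ATPase, the proton pump that acidifies lysosomes, had 12 of 15 tested subunits higher and 1 lower, with a median log2 fold change of 1.24. Of all tested genes 30.2% were higher and 29.8% lower. Atp6v1e1, a stalk subunit, was counted at 1246, 991 and 1172 CPM in tumor mice, against 202, 163 and 203 in blood mice (log2 fold change 2.58, edgeR adjusted p = 1.63e-10). Atp6v1c1 and Atp6v1h rose by 3.31 each (edgeR adjusted p = 3.99e-09 and 1.21e-05), Atp6v1h from 36 tumor and 7 blood UMIs. Atp6v0a1, an isoform of the membrane a subunit, was the subunit called lower and fell by 2.49 (edgeR adjusted p = 9.15e-06), with 14 tumor and 165 blood UMIs.

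Of 16 tested glycosidases, lipases and other hydrolases, 10 were higher and 4 lower, with a median log2 fold change of 1.27. Gla, the alpha-galactosidase, had a larger difference than any of the 10 genes, at 722, 916 and 736 CPM in tumor mice, against 13.7, 15.8 and 18.2 in blood mice (log2 fold change 5.69, edgeR adjusted p = 2.33e-12). The acid phosphatase Acp5 rose by 3.44 and the cholesterol carrier Npc2 by 2.38 (edgeR adjusted p = 8.77e-06 and 2.26e-08). Of 17 tested membrane and trafficking genes, 10 were higher and 2 lower, with a median of 1.30. M6pr, a mannose 6-phosphate receptor that carries new hydrolases to lysosomes, rose by 4.69, Cd68 by 3.05, the late-endosome GTPase Rab7 by 2.92 and the peptide transporter Slc15a3 by 2.87 (edgeR adjusted p = 7.13e-11, 7.54e-10, 8.78e-12 and 1.62e-11).

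Among tested regulators of lysosomes, 6 of 12 were higher and 1 lower, with a median log2 fold change of 0.65. The transcription factors that bind the E-box element were counted rarely and none was called. Tfeb had 3, 11 and 5 UMIs in tumor mice, against 20, 20 and 25 in blood mice (log2 fold change -0.71, edgeR adjusted p = 0.124). Tfe3 had 0, 15 and 5 UMIs in tumor mice, against 12, 15 and 19 in blood mice (log2 fold change -0.18, edgeR adjusted p = 0.757), and Mitf had too few to be tested, 1, 7 and 3 in tumor mice against 3, 4 and 8 in blood mice. The 95% interval ran from -1.52 to 0.10 for Tfeb, whose tumor and blood mice did not overlap in CPM, and from -1.17 to 0.81 for Tfe3, whose mice overlapped. Sqstm1, an autophagy receptor, was counted at 1331, 1178 and 1189 CPM in tumor mice, against 133, 116 and 112 in blood mice (log2 fold change 3.36, edgeR adjusted p = 5.06e-12). Rragd, a Rag GTPase that recruits mTORC1 to lysosomes, had 31 UMIs in tumor cells and 2 in blood cells. Flcn and Rragc, of the same nutrient-sensing machinery, rose by 3.21 and 2.97 (edgeR adjusted p = 1.97e-06 and 2.10e-06). Of 6 tested tetraspanins other than Cd63, 2 were higher and 2 lower, with a median of 0.11: Cd9 and Cd53 rose by 2.68 and 1.58, and Cd37 and Tspan13 fell by 1.31 and 0.98 (edgeR adjusted p = 6.97e-10, 1.22e-08, 5.74e-06 and 2.48e-05). This split lay near the shares over all tested genes and is not read as a result about tetraspanins.

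**Figure D4:**
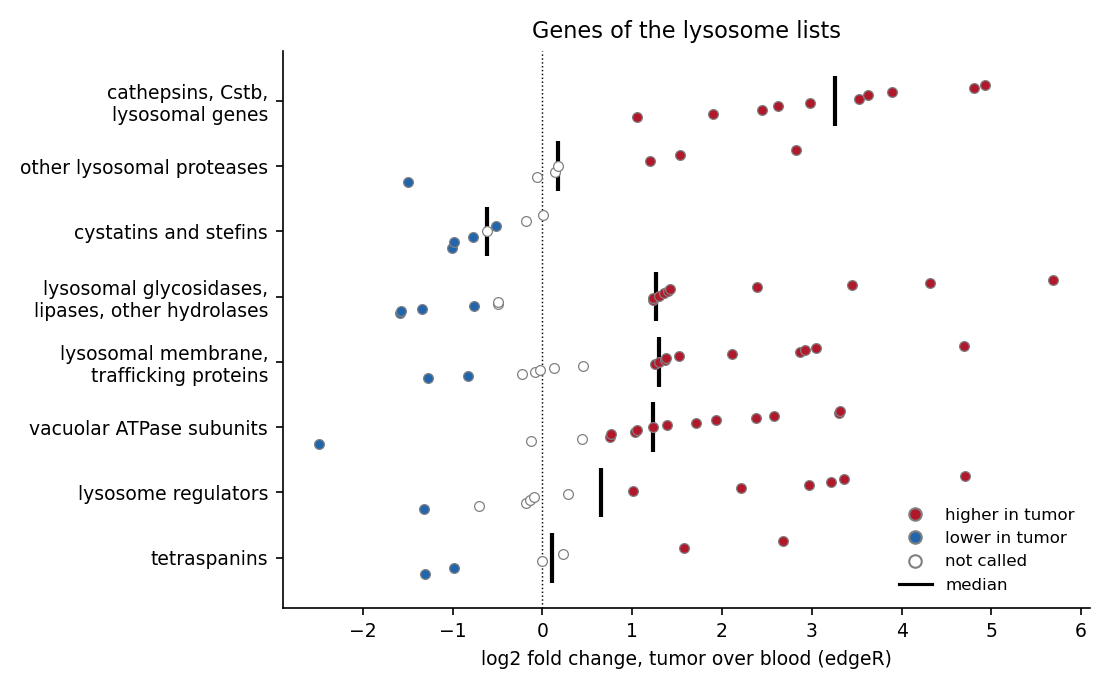
Log2 fold change of tumor over blood (edgeR) for every tested gene of each list; filled points passed an adjusted p of 0.05, open points did not, and black bars are list medians. The median was 3.26 for the cathepsins, Cstb and lysosomal genes, 1.24 for vacuolar ATPase subunits, 0.18 for the other proteases and -0.62 for the cystatins and stefins.

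The third comparison asked how the genes varied among the tumor neutrophils. Tumor cells with a UMI of Retnlg, a gene high in circulating neutrophils, were set against tumor cells without one in the same mouse, after removal of the marker cells. There were 30, 141 and 36 cells with a Retnlg UMI and 70, 378 and 126 without in tumor mice 1, 2 and 3. The cells with a Retnlg UMI were deeper, with medians of 631 to 746.5 UMIs per cell against 516 to 548.5 in the cells without, and the part of depth in the differences was not tested. Of the 10 genes 8 passed the filter, and 5 of these were called lower in the cells with a Retnlg UMI by edgeR's quasi-likelihood test with mouse as a block. Among all 891 tested genes 7.63% were called lower and 10.8% higher, 18.4% in all.

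Cstb was counted at 2448, 2757 and 2028 CPM in the cells with a Retnlg UMI, against 4564, 4838 and 5425 in the cells without, lower in 3 of 3 mice (log2 fold change -0.88, SE 0.16, edgeR adjusted p = 2.16e-06). Ctsb was counted at 1646, 1895 and 1718 CPM in the cells with a Retnlg UMI, against 3637, 3284 and 3552 in the cells without, also lower in 3 of 3 mice (log2 fold change -0.82, SE 0.17, edgeR adjusted p = 3.09e-05). Cd63 showed the widest gap, at 253, 388 and 309 CPM in the cells with a Retnlg UMI, against 761, 1107 and 976 in the cells without (log2 fold change -1.42, SE 0.28, edgeR adjusted p = 9.75e-06). For these genes no mouse's cells with a Retnlg UMI reached the level of any mouse's cells without. The share of all tested genes with such a gap, or lower in 3 of 3 mice, was not counted. Neither pattern is therefore read as particular to Cstb, Ctsb and Cd63. Both classes of tumor cells stayed above every blood mouse for Cstb, Ctsb and Cd63. The tumor barcodes of few UMIs, however, held Ctsb at 1638 CPM (exact 95% Poisson interval 1488 to 1799) and Cd63 at 332 (267 to 409). The cells with a Retnlg UMI lay near that level for these 2 genes. For Cstb they lay above it, at 795. The part of RNA outside cells in these levels was not tested.

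Lamp1 and Psap were also lower in the cells with a Retnlg UMI in 3 of 3 mice, with log2 fold changes of -0.72 for Lamp1 (edgeR adjusted p = 0.0396) and -0.77 for Psap (edgeR adjusted p = 0.00440), but these calls did not hold. That of Lamp1 was lost in each of the 7 alternatives run, with adjusted p from 0.0752 with no mouse block to 0.407 with no low-count filter. That of Psap was lost in 5 of the 7, under HTODemux (adjusted p = 0.342), with no low-count filter, with the marker cells kept and without mouse 2 or mouse 3. Without mouse 3 the call of Cd63 was kept (edgeR adjusted p = 0.0463) and those of Cstb and Ctsb were lost, with log2 fold changes of -0.70 for Cstb (edgeR adjusted p = 0.0993) and -0.77 for Ctsb (edgeR adjusted p = 0.1). Ctsd was counted at 971, 1008 and 1134 CPM in the cells with a Retnlg UMI, against 1259.9, 1057 and 1002 in the cells without, and was not called (log2 fold change 0.07, 95% interval -0.35 to 0.48). Ctsz (log2 fold change -0.15, interval -0.70 to 0.39) and Ctss (0.05, interval -0.83 to 0.93) were not called either, and these intervals allow differences in either direction. Ctsl and Lgmn had 13 and 3 UMIs in the cells with a Retnlg UMI and 37 and 33 in the cells without, and were not tested.

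**Figure D5:**
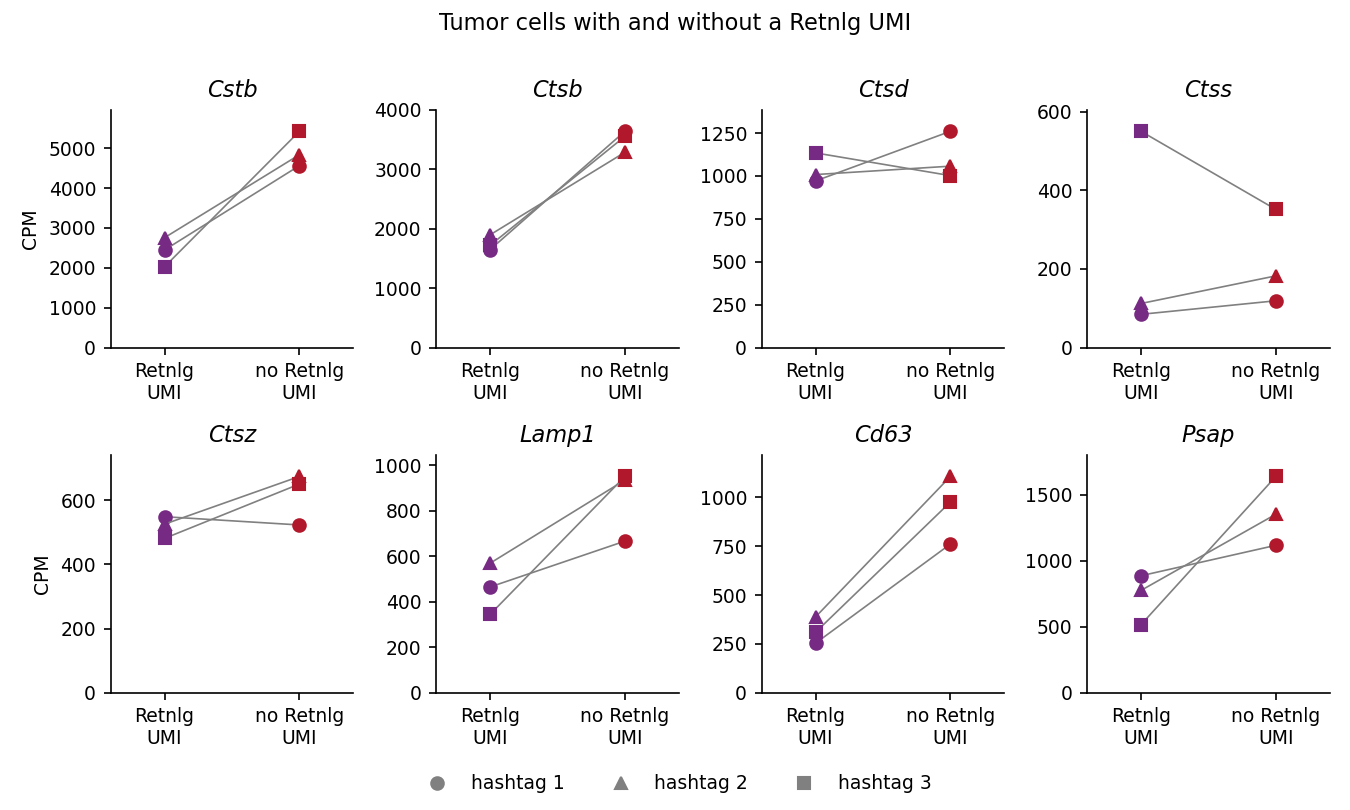
Level in CPM of the 8 tested genes in tumor cells with a Retnlg UMI and without one; each line joins the classes of a mouse, and each axis starts at 0. Cstb, Ctsb, Lamp1, Cd63 and Psap were lower in the cells with a Retnlg UMI in 3 of 3 mice, and Ctsd, Ctss and Ctsz in 2 of 3.

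The tested genes whose levels over the 6 mouse and tissue sums lay closest to those of Cstb were Nr4a1, Gadd45b, Il1rn, Cd14 and Il1a, by Euclidean distance between centred log2 CPM with a prior count of 2. The distance was 0.29 for Nr4a1, an early-response nuclear receptor, and 0.50 for Il1a, the interleukin-1 alpha gene, which had 10, 62 and 17 UMIs in tumor mice and 0 in every blood mouse. Gadd45b, a stress-response gene, averaged 4279 CPM in tumor mice and 157 in blood mice. Il1rn, the interleukin-1 receptor antagonist, averaged 3843 in tumor mice and 155 in blood mice, and Cd14, the co-receptor for lipopolysaccharide, 12076 and 355. With 6 points that fall into 2 tissues, this closeness mainly restates a difference between tumor and blood of like size.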

How the data were processed

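The authors deposited 2 kinds of table, raw UMI counts of genes and raw counts of hashtags, both with cell barcodes as columns and not normalized, per the file headers and values. The submitters' processing notes list STAR and mm10, with no version. How genes were counted, and whether strand was used, is not given in the sources used here; reads of overlapping or near-identical genes may have been split. Each library file lists 10000 barcodes; the libraries share 20 barcodes, 0 of them among kept cells. Barcodes with at least 200 detected genes and at most 15% mt- UMIs (947 tumor, 1534 blood) went to the mouse whose hashtag held at least 70% of hashtag counts, which left 841 and 1375. No doublet caller was applied beyond this rule; HTODemux (Seurat 5.3.0, 4 centres, quantile 0.99) marked 78 assigned tumor and 100 assigned blood cells as doublets.

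UMIs were summed per mouse and tissue and tested with edgeR 4.0.16 (R 4.3.3; filterByExpr, TMM, quasi-likelihood, Benjamini-Hochberg over all tested genes); DESeq2 1.42.0 was an alternative. The scripts were tested on simulated data. Nothing says that hashtag 1 is the same mouse in both tissues, so no block was used between tissues. Same-numbered sums did not deviate together (correlations 0.006, -0.005 and -0.023). Differently numbered sums did not either (-0.042 to 0.052), so this check cannot tell whether the numbers pair the mice. CPM divides by the UMI total of each sum and multiplies by 1000000. Gene positions are from GENCODE M21 (GRCm38), promoters from RefSeq. The 10 genes, the companion lists and the tests were chosen with earlier results of these data known. Named companions are the 4 called genes per list with the largest absolute log2 fold change, of which 1 is not reported here; Tfeb, Tfe3 and Mitf were always named. The composition of the inhibitor pool and the background shares of cells were added after seeing the data.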

Additional observations from a re-analysis of the deposited data

Results flagged for a closer look

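Barcodes that passed the cell filters but were assigned to no mouse, 106 in tumor and 159 in blood, were in no comparison. All 10 genes stood higher in the tumor barcodes than in the blood barcodes of this kind, with exact 95% Poisson intervals that did not overlap. These intervals cover counting error in a single library per tissue. The share of all genes with such a gap was not counted, so it is not read as particular to the 10 genes. Cstb was at 4397 CPM in the tumor barcodes and 144 in the blood barcodes, and Ctsb at 3599.8 and 233. Ctsd stood at 1159.7 and 513, Ctsz at 689 and 56.1, and Ctss at 495 and 104. Lamp1 stood at 1039 and 136, Cd63 at 1449.6 and 64.1, and Psap at 1812 and 200.4. Ctsl was at 157 in the tumor barcodes and at 0 of 124722 UMIs in the blood barcodes, with an exact 95% Poisson upper bound of 29.6 CPM, and Lgmn was at 217 and 8.02. Marker cells were not removed from these barcodes. The tumor intervals of Ctsl (83.6 to 269) and Lgmn (129 to 344) overlapped those of the tumor barcodes of few UMIs, 63.4 to 142 and 81.7 to 169. The barcodes assigned to no mouse were not tested.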

How the results depend on the processing

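All 10 genes were called higher in tumor in each alternative run, with and without the marker cells, the removal of tumor cells with 1 or more marker UMIs included (chosen after seeing the data). With at most 5% mt- UMIs, 740 genes were higher and 674 lower in tumor. Hashtag numbers were not shown to pair the mice; with a replicate block by hashtag, 993 genes were higher and 980 lower, and all 10 genes were called. The log2 difference, tumor minus blood, in Cstb UMIs per papain-like cathepsin UMI was 1.60, and 1.76 without the marker cells. Of tumor cells by Retnlg, genes higher numbered 96, and 56 with HTODemux, 51 with no low-count filter, 55 with marker cells kept and 34 to 70 on leaving out a mouse; genes lower numbered 68, and 44, 21, 16 and 7 to 30; of the 10 genes, 5 were lower, and 3, 3, 3 and 1 to 4. The log2 fold change of Ctsd by Retnlg turned to -0.10 with no filter and ran from -0.017 to 0.21 on leaving out a mouse, that of Ctss to -0.50 with HTODemux, -0.12 with no filter and -0.31 with marker cells kept, and that of Ctsz to 0.047 with HTODemux; none was called, and the cause was not tested. Few blood UMIs limit Ctsl and Lgmn, whose calls are not read as support.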
